A study of Danio rerio with 5 samples.

Results

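The array of Bdh2 morphants expressing ectopic Bdh2 was compared with both control morphant arrays, to see where transcript levels of embryos given Bdh2 again lay relative to embryos that had received a control morpholino. The comparison uses 3 of the 5 arrays of the study, and every probe set is judged by whether the single array lay outside both control arrays on the same side. All arrays held total RNA of wild-type zebrafish embryos at 72 h after fertilization, hybridised to Affymetrix arrays. The ectopic Bdh2 group (1 array) had received the Bdh2 morpholino together with a synthetic capped mRNA for mouse Bdh2 at 50 µg/ml. The Bdh2 morphants (2 arrays) had received that morpholino alone, and the control morphants (2 arrays) a control morpholino. Morpholinos, antisense oligomers that block translation or splicing of a chosen RNA, were at 130 µmol/L and entered at the 1- to 2-cell stage, so that all groups had been injected. The sources used here do not say how the Bdh2 morpholino acts, how many embryos made up a sample, or whether replicates came from separate clutches. Injected mRNA is diluted and degraded as an embryo grows, and the labels give no measure of Bdh2 protein at sampling.

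Bdh2 is a short-chain dehydrogenase linked to synthesis of the mammalian siderophore, a small molecule that carries iron inside cells and into mitochondria. A whole-embryo sample at this stage mixes many tissues: striated muscle of the trunk and tail, cartilage of the head, liver, brain, eye and blood. Muscle fibres carry abundant transcripts for sarcomere proteins and calcium-binding parvalbumins, the liver and yolk layer for plasma proteins and apolipoproteins, and the eye and brain for transcription factors that mark progenitors and regions. In whole-embryo RNA, fewer cells of a type and less RNA per cell cannot be told apart.

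Of 15502 probe sets, 9301 had a mean level over the 5 arrays above the 40th percentile (an intensity of 97.6) and are described here. They cover 6327 named genes at 1 probe set per gene. Median intensity was 174 on the ectopic Bdh2 array, 157 and 142 on the Bdh2 morphant arrays and 161 and 162 on the control arrays, and the number of arrays limits the precision. The 99th percentile of the ectopic Bdh2 array was 10770, against 15680 and 17530 for Bdh2 morphants and 16690 and 15330 for controls. Its brightest values were thus lower although its median was the highest. List medians of bright genes can therefore move with the scaling. The median log2 difference of all described probe sets was 0.12, and centring each array moved differences by 0.10, so small positive values are read against that shift. Across described probe sets, the ectopic Bdh2 array correlated at r = 0.911 with control replicate 1 and at r = 0.876 with control replicate 2. With Bdh2 morphant replicate 1 it correlated at r = 0.909, and with Bdh2 morphant replicate 2 at r = 0.8345. The controls correlated with each other at r = 0.932. The 3'/5' signal ratio of the actin control, a sign of RNA integrity, was 6.63 on the ectopic Bdh2 array, 11.8 and 3.49 on the Bdh2 morphant arrays and 4.28 and 2.60 on the control arrays. For the gapdh control the ratio was 1.99, then 2.82 and 1.72, then 2.68 and 1.504 in that order of groups. Both ratios of the ectopic Bdh2 array lay within the span of the other arrays, and their part in the results was not tested. Both rest on transcripts that were low on this array. The 3' signal of the actin control, acta1, was 8310 there and between 33261 and 44265 on the other arrays, and gapdh is given below.

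The bdh2 transcript itself read 142 on the ectopic Bdh2 array, 235 and 643 on the Bdh2 morphant arrays and 344 and 335 on the control arrays. The ectopic Bdh2 array was the lowest of the 5, and the Bdh2 morphant arrays lay on both sides of the controls. The difference between the ectopic Bdh2 array and the controls was -1.17 on the log2 scale (SE 0.61; limma adjusted p = 0.736), which did not pass the test. The supplied mRNA is of mouse, and whether the zebrafish probe set records it was not tested.

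Most of the distance between the ectopic Bdh2 array and the controls lay on the low side, in abundant transcripts of muscle, cartilage and liver, whereas brain, eye and progenitor transcripts lay moderately above both controls. By any amount, 4091 probe sets (44%) lay above both controls and 2686 (28.9%) below both. These stood for 2677 genes above (42.3% of those described) and 1969 genes below (31.1%). Beyond a 2-fold distance from the nearest control, on a scale of log2(intensity + 16), 167 probe sets (1.8%) lay above and 367 (3.95%) below. At 1 probe set per gene, 92 genes (1.45%) lay above and 277 (4.38%) below. The distances were unequal: the genes below lay a median of 3.26-fold and at most 30.5-fold under the nearest control, and the genes above a median of 2.32-fold and at most 4.997-fold over it. Of the 92 genes above, 90 also exceeded both Bdh2 morphant arrays, and 266 of the 277 genes below were also under both. These genes were chosen by that same single reading, so the counts are no separate comparison with the Bdh2 morphants. The matching shares over all genes were not counted. On the ectopic Bdh2 array, 70 of the 277 genes read less than the filter intensity of 97.6, where folds depend on the added constant. The filter uses the mean of all 5 arrays, so a gene low only on the single array passes more easily than one high only there. Of the 92 genes above, 10 had a control mean under the filter intensity, among them six6a, egr2a, gcga and trappc2. Such a gene could pass the filter through its high reading on the single array. For six6a, gcga and trappc2 the mean log2 level of the other arrays lay under the filter level. These genes are described only through that reading, which was not so for egr2a. Without the filter, 323 probe sets lay over 2-fold above both controls and 484 below, a less unequal count. Just inside the 2-fold line stood nkx2.2a (1.00 above) and etnppl (-1.01), and just outside it tnrc6c2 (1.00, rounded up) and pgk1 (-0.99), all as log2 distances.

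A limma model over all 5 arrays, in which the single array is assumed to vary like the replicated groups, called 62 probe sets lower (0.667%) and none higher (0%) at a Benjamini-Hochberg adjusted p below 0.05. At an unadjusted p under 0.05 there were 653, of which 219 were higher. Adjusted p of the 62 ran between 0.00487 and 0.0445 and their log2 differences between -5.06 and -1.74. Both Bdh2 morphant arrays lay above the ectopic Bdh2 array in all 62. The 62 were called on that same single reading, so this is no separate comparison. The called probe sets stood for 50 genes at 1 probe set each (0.79%). Of these genes, 28 belonged to either of the muscle lists, 5 to either of the liver and lipid lists and 3 to the cartilage list. The counts depended on the arrays and terms in the model. Leaving out a control also changed the prior degrees of freedom, the weight of the spread shared across probe sets. They were 25.2 without control replicate 1 and 25.4 without control replicate 2, against 4.89 in the main fit. Counts of those fits are therefore not like for like with the main count. Without control replicate 1 the model called 122 lower and 10 higher, and without control replicate 2 it called 106 lower and 3 higher. When replicate number entered as a block, 126 were lower and 9 higher. Without the filter on mean level it called 38 lower, and without the intensity trend 40. Of the 62 probe sets, 24 no longer passed without the filter and 22 without the trend.

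**Figure D1:**
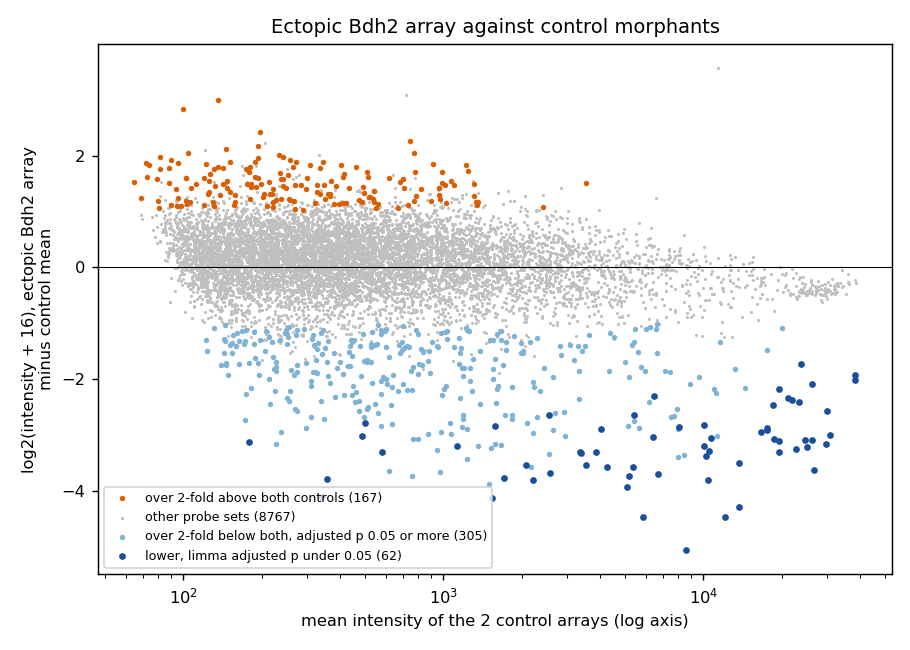
Log2 difference of the ectopic Bdh2 array from the control mean (vertical) against the mean control intensity (horizontal, log axis), 1 point per described probe set. Orange points are the 167 probe sets over 2-fold above both controls, light blue points those over 2-fold below both, and dark blue points the 62 called lower by limma; the dark points reach -5.06 and include some of the brightest probe sets, whereas the orange points lie at lower control intensities.

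Skeletal muscle held the lowest values. In the list of contractile genes, 25 of 30 described members lay over 2-fold below both controls and none above, beside 4.38% and 1.45% of all genes, and 17 fell by the limma test, beside 0.79%. The list's median log2 difference was -2.99 (-2.88 from control replicate 1 and -3.08 from control replicate 2), beside 0.09 for all described genes. The Bdh2 morphants, which share these controls, had a median of -0.63 for the same list. Among the genes that fell were the fast troponins tnnc2.2, tnni2a.4, tnnt3a and tnnt3b, the tropomyosin tpma, the myosin light chains myl1, mylpfa and mylz3, and the sarcomeric actin actc1b. The fast regulatory light chain gene mylpfa, a defining marker of fast muscle, read 2132 on the ectopic Bdh2 array, 25478 and 24193 on the Bdh2 morphant arrays and 27696 and 25700.0 on the control arrays. The single array was thus apart from 4 arrays that lay close together. Its difference from controls was -3.64 (SE 0.22; limma adjusted p = 0.00487). The slow myosin heavy chain smyhc1 read 313 on the ectopic Bdh2 array, 3355 and 2796 on the Bdh2 morphant arrays and 3975 and 6231 on the control arrays, a log2 difference of -3.92 (SE 0.40; limma adjusted p = 0.0093). The fast heavy chain myhz1.3 read 971 on the ectopic Bdh2 array, 3644 and 6589 on the Bdh2 morphant arrays and 10709 and 9824 on the control arrays. Here the Bdh2 morphant arrays lay between the ectopic Bdh2 array and the controls, and the difference of the ectopic Bdh2 array from controls was -3.38 (limma adjusted p = 0.0174). Genes of the Z-disc, the plate that anchors the thin filaments, fell as well: actn3b, an alpha-actinin, read 185 on the ectopic Bdh2 array, against 2395 and 2768 on the control arrays (-3.69; limma adjusted p = 0.00946). The Z-disc protein gene myoz1b read 111 on the ectopic Bdh2 array, against 1816 and 1615 on the control arrays (-3.76; limma adjusted p = 0.026).

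Among muscle genes of calcium handling and energy supply, 20 of 24 described members lay over 2-fold below both controls, 1 lay above both by a smaller distance, and 11 fell by the limma test, beside 4.38%, 42.3% and 0.79% of all genes. The list median was -2.66, and that of the Bdh2 morphants against the same controls was -0.30. The largest distance below the controls among described genes was that of pvalb4, a parvalbumin that buffers calcium in fast fibres. It read 239.8 on the ectopic Bdh2 array, 6955 and 4759 on the Bdh2 morphant arrays and 9321 and 7776 on the control arrays, a log2 difference of -5.06 (SE 0.37; limma adjusted p = 0.00487). The ectopic Bdh2 array stood far under the other 4. The related gene pvalb1 read 3822 on the ectopic Bdh2 array, against 33688 and 27701 on the control arrays (-2.99; limma adjusted p = 0.00564). For pvalb2 the difference was -2.58 (limma adjusted p = 0.00564). The sarcoplasmic reticulum gene srl, which encodes the calcium-binding protein sarcalumenin, read 141 on the ectopic Bdh2 array, against 1932 and 2489 on the control arrays, a log2 difference of -3.81 (SE 0.41; limma adjusted p = 0.0104). The calcium pump gene atp2a1 read 2867 on the ectopic Bdh2 array, against 28169.7 and 21125 on the control arrays (-3.08; limma adjusted p = 0.00844). Muscle enzymes followed the same order of groups. The glycolytic gene pgam2 read 434 on the ectopic Bdh2 array, against 5123 and 5585 on the control arrays (-3.57; limma adjusted p = 0.0093), and the creatine kinase genes ckma and ckmb differed by -2.33 and -2.17. The caveolin gene cav3 read 147 on the ectopic Bdh2 array, against 1474 and 1582 on the control arrays and did not pass (-3.24; limma adjusted p = 0.0709).

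Further genes that fell stood outside the muscle lists. The myosin light chain genes myl13 and myl10 had differences of -4.46 and -4.30 (both limma adjusted p = 0.00487), with myl13 at 530.4 on the ectopic Bdh2 array, against 11451 and 12682 on the control arrays. The nucleoside diphosphate kinase gene nme2b.2 read 731 on the ectopic Bdh2 array, against 10601 and 10241 on the control arrays (-3.80; limma adjusted p = 0.00487). The adenylate kinase gene ak1 differed by -3.51, the sarcoplasmic reticulum channel gene tmem38a by -3.69, and gapdh, a glycolytic enzyme often used for normalisation, by -3.08. The creatine synthesis genes gamt and gatm differed by -2.87 and -2.31, and bhmt, a methyltransferase of homocysteine metabolism, by -1.74. The ADP/ATP carrier gene slc25a4 read 372 on the ectopic Bdh2 array, 2017 and 2462 on the Bdh2 morphant arrays and 5545 and 4764 on the control arrays, a log2 difference of -3.73 (SE 0.36; limma adjusted p = 0.00844). For slc25a4 the Bdh2 morphants again lay between. The focal adhesion gene lims2 read 10.6 on the ectopic Bdh2 array, against 323 and 389 on the control arrays. The gene tmx2a read 6.29 on the ectopic Bdh2 array, against 172 and 186 on the control arrays. On the ectopic Bdh2 array both were under the added constant of 16. Their log2 differences of -3.80 and -3.13 therefore depend on it. Of the 15 genes with the largest distance below the controls, si:dkey-183i3.5, zgc:136930 and si:ch211-1a19.3 did not pass the test. For si:dkey-183i3.5, the Bdh2 morphant arrays read 456 and 55.0, on either side of the ectopic Bdh2 array at 83.9.

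The heart list and the regulators of muscle formation stood nearer the controls. The heart list had a median of 0.01, with 4 of 13 described genes above both controls and 3 below, beside 42.3% and 31.1% of all genes. It also holds genes other than those of heart muscle fibres, such as tbx2b, hey2, bmp4 and gata5. Blocking on replicate number, its median was -0.28. The heart light chain gene myl7, a defining marker, read 1932 on the ectopic Bdh2 array, against 2246 and 1540.0 on the control arrays, between the controls. Only actc1a, an alpha-actin of striated muscle, fell among heart list members (-2.37; limma adjusted p = 0.0093). Of 9 described myogenic regulators, 6 lay below both controls, 1 of them over 2-fold, beside 31.1% and 4.38% of all genes, and none passed the test. The regulator myod1 read 71.7 on the ectopic Bdh2 array, 144 and 58.4 on the Bdh2 morphant arrays and 166 and 140.3 on the control arrays, a difference of -0.94 (limma adjusted p = 0.756). The lowest of the regulators, mef2ca, read 93.3 on the ectopic Bdh2 array, against 212 and 756 on the control arrays, a 2-fold distance from the nearest control. The regulators were dim, with a median intensity of 114 on the ectopic Bdh2 array, and differences of dim genes are understated on this scale.

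**Figure D2:**
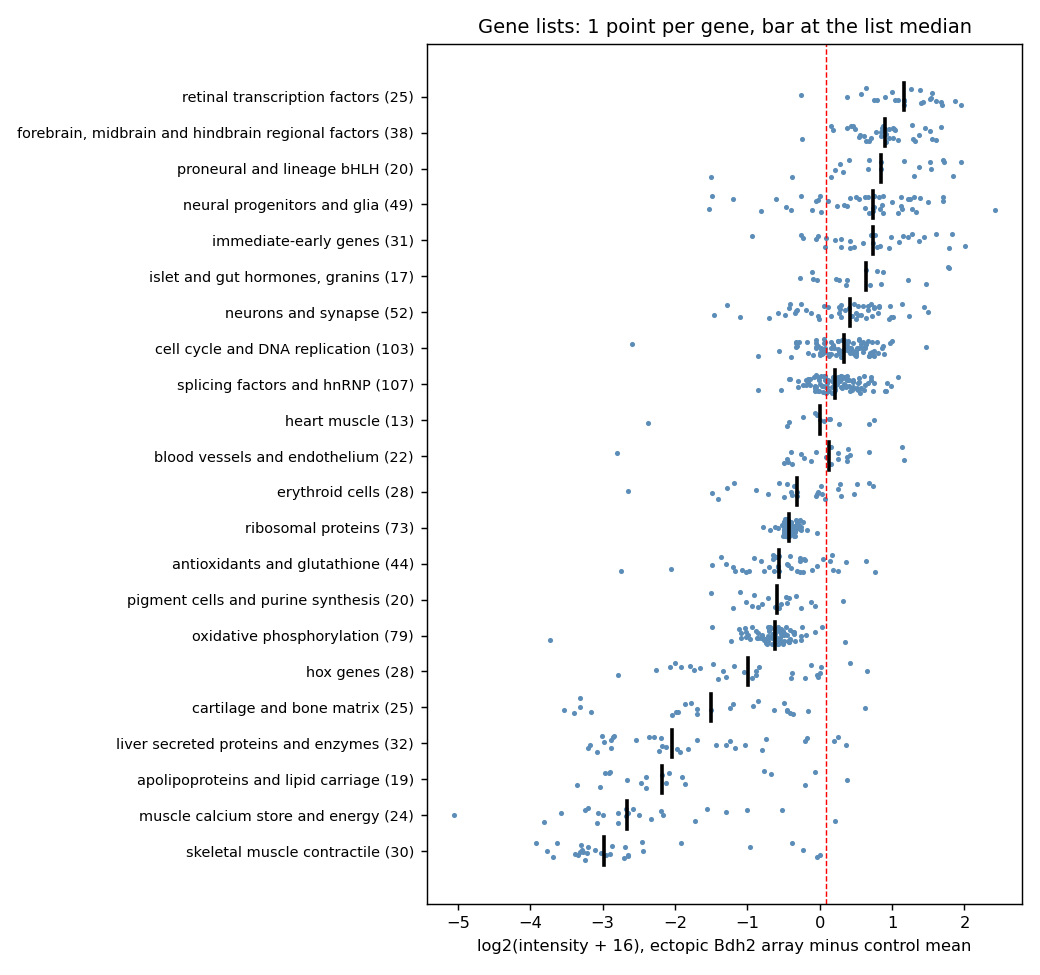
Log2 differences of the ectopic Bdh2 array from the control mean for the described genes of 22 lists (horizontal), 1 point per gene and a black bar at each list's median; the number of genes stands in brackets and the red dashed line marks the median of all genes, 0.09. The medians span -2.99 for contractile genes to 1.17 for retinal transcription factors.

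Cartilage and bone matrix genes were low in the same array. Of 25 described members, 13 lay over 2-fold below both controls, 1 lay above both by a smaller distance, and 3 fell by the limma test. Over all genes these shares were 4.38%, 42.3% and 0.79%. The median was -1.51, against a Bdh2 morphant median of -0.54 from the same controls. The 3 that fell encode chains of type IX collagen, a fibril-associated collagen of cartilage. The first, col9a3, read 289 on the ectopic Bdh2 array, 2836 and 2153 on the Bdh2 morphant arrays and 3970.5 and 3134 on the control arrays, a log2 difference of -3.54 (SE 0.39; limma adjusted p = 0.0104). For col9a2 the values were 325 on the ectopic Bdh2 array, against 3505 and 3266 on the control arrays (limma adjusted p = 0.0266), and for col9a1b they were 368 on the ectopic Bdh2 array, against 4687 and 3068 on the control arrays (limma adjusted p = 0.0278). The ectopic Bdh2 array lay below all 4 other arrays for each of the 3. The main fibril collagen of cartilage, col2a1a, read 719 on the ectopic Bdh2 array, 9020.4 and 3318 on the Bdh2 morphant arrays and 10055 and 5945 on the control arrays. Its difference of -3.40 did not pass (SE 0.61; limma adjusted p = 0.104), and the replicates of each of the other groups differed among themselves. The chondromodulin gene cnmd differed by -3.16 (limma adjusted p = 0.171). Of 19 described notochord and floor plate genes, 12 lay below both controls and 4 over 2-fold below, beside 31.1% and 4.38% of all genes. Among these, tbxta, the brachyury factor of the notochord, read 33.4 on the ectopic Bdh2 array, against 294 and 155 on the control arrays (-2.22; limma adjusted p = 0.225).

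Liver and lipid-carrier transcripts formed another low set. Of 32 described liver genes, 21 lay over 2-fold below both controls, none over 2-fold above, and 1 fell by the limma test at 1 probe set per gene, where all genes had 4.38%, 1.45% and 0.79%. The list median was -2.05 (-1.81 from control replicate 1 and -2.38 from control replicate 2), against -0.01 in Bdh2 morphants. That value averages 2 arrays that differed. Median intensity of the list was 596 and 884 on the Bdh2 morphant arrays, 663 and 935 on the control arrays and 161 on the ectopic Bdh2 array. The fibrinogen gene fgb, a clotting factor and defining marker of liver, read 204 on the ectopic Bdh2 array, 1460.1 and 1199.6 on the Bdh2 morphant arrays and 1348 and 1822 on the control arrays, a log2 difference of -2.85 (SE 0.41; limma adjusted p = 0.0387). The plasminogen gene plg has 2 probe sets. One, at 44.4 against 602 and 557 (ectopic Bdh2 array first), passed with an adjusted p of 0.0278, and the brighter one, at 74.7 against 506 and 515, did not (limma adjusted p = 0.0673). The secreted protease inhibitor fetub read 169 on the ectopic Bdh2 array, against 1683 and 1646 on the control arrays (limma adjusted p = 0.0579). The retinol carrier rbp4 read 1362 on the ectopic Bdh2 array, 7971 and 17910.4 on the Bdh2 morphant arrays and 9287 and 13315 on the control arrays (-3.01; limma adjusted p = 0.0709). The plasma iron carrier tfa, transferrin, read 751 on the ectopic Bdh2 array, 3085 and 9443 on the Bdh2 morphant arrays and 5989.6 and 5305 on the control arrays. For tfa the ectopic Bdh2 array was the lowest of the 5, and its difference of -2.88 did not pass (SE 0.62; limma adjusted p = 0.203). The hemoglobin-binding protein gene hp differed by -2.98 and the matrix-binding plasma protein itih2 by -3.08, without passing.

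Among apolipoproteins and lipid carriers, 14 of 19 described genes lay over 2-fold below both controls and 18 below both by any amount, beside 4.38% and 31.1% of all genes. Their median was -2.18, against 0.15 in Bdh2 morphants. The Bdh2 morphant arrays differed here, with list median intensities of 4179 and 9641, on either side of the control arrays at 6599 and 7727. The 4 that fell (0.79% of all genes did) were apoa1a, apoa2, apoa4b.1 and apoc1, protein parts of lipoprotein particles. The apoa1a transcript read 4369.9 on the ectopic Bdh2 array, 22040.1 and 34158 on the Bdh2 morphant arrays and 22250.4 and 24290.4 on the control arrays, a log2 difference of -2.41 (SE 0.30; limma adjusted p = 0.0217). The apoc1 transcript read 3340.2 on the ectopic Bdh2 array, against 17936 and 19253 on the control arrays (limma adjusted p = 0.0423). For both genes Bdh2 morphant replicate 2 was the highest array and the ectopic Bdh2 array the lowest. The fatty acid carriers fabp2 and fabp1b.1 differed by -2.91 and -2.90, and did not pass (limma adjusted p = 0.211 and 0.132).

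**Figure D3:**
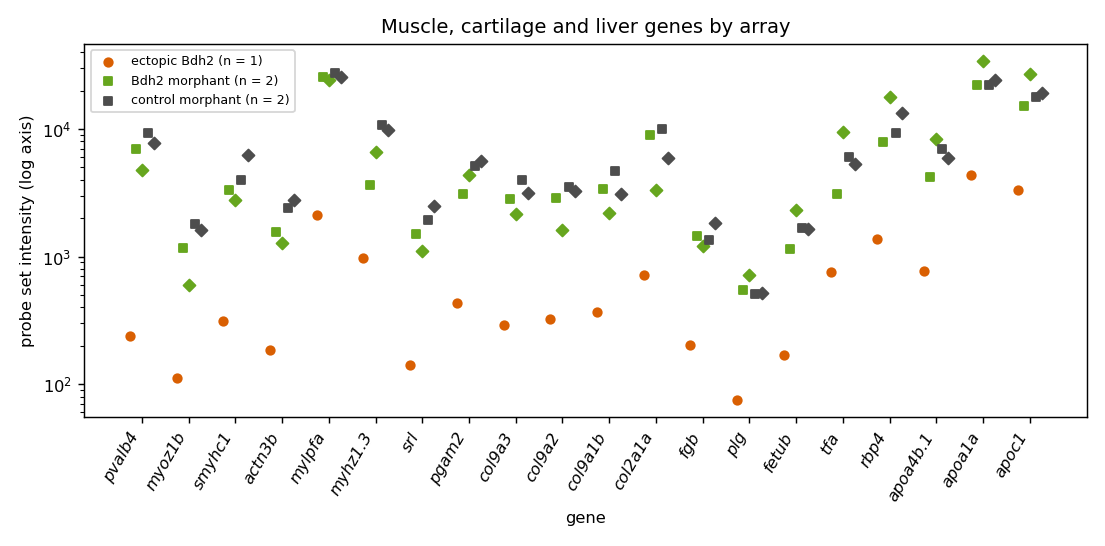
Probe set intensity (log axis) of muscle, cartilage and liver genes on the ectopic Bdh2 array (orange circle), the Bdh2 morphant arrays (green) and the control arrays (grey); squares are replicate 1 and diamonds replicate 2. The orange circle lies under all 4 other arrays for each gene drawn. The genes were picked from list members far below both controls or called lower, so their place against the controls was set by the choice.

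The hox genes, homeobox factors that pattern the body along its length, lay mostly below the controls. Of 28 described members, 21 lay below both controls, 11 of them over 2-fold, and 1 fell by the limma test, beside 31.1%, 4.38% and 0.79% of all genes. The median of the list was -0.99, against -0.30 in Bdh2 morphants. Split by paralog number, a division chosen after the values were seen, the 9 genes of paralogs 1 to 4, which are used in the hindbrain, had a median of -0.03 and none lay 2-fold below. The 9 genes of paralogs 5 to 8 had a median of -1.30, with 4 over 2-fold below both controls. Among these genes, hoxc5a, hoxc6a and hoxb8b read 70.5, 89.3 and 73.9 on the ectopic Bdh2 array, under the filter intensity. The 10 genes of paralogs 9 to 13, used in the posterior trunk and tail, had a median of -1.83, and all 10 lay below both controls, 7 of them over 2-fold. Low readings of these genes were not confined to the ectopic Bdh2 array. Bdh2 morphant replicate 1 also lay below both controls for all 10. For hoxc13a it read 117, under the ectopic Bdh2 array at 148, and for the others it lay above that array. Bdh2 morphant replicate 2 lay below both controls for hoxb9a, hoxc11a and hoxd11a. It lay above both for hoxc9a, hoxd9a, hoxd10a and hoxc13a, and between them for the rest. The gene that fell was hoxb9a, at 58.9 on the ectopic Bdh2 array, 258 and 299 on the Bdh2 morphant arrays and 501 and 502 on the control arrays. Its controls lay close together, with the Bdh2 morphants between them and the ectopic Bdh2 array, and the difference was -2.79 (SE 0.40; limma adjusted p = 0.0391). The gene hoxc8a read 353 on the ectopic Bdh2 array, against 1271 and 1254 on the control arrays (-1.79; limma adjusted p = 0.234). The gene hoxd10a read 72.7 on the ectopic Bdh2 array, 158 and 580.4 on the Bdh2 morphant arrays and 290.2 and 440.1 on the control arrays. The Bdh2 morphants spanned the controls, and the difference of -2.07 did not pass (limma adjusted p = 0.586). At the other end of the clusters, hoxb2a, chosen after its values were seen, read 867 on the ectopic Bdh2 array, against 420.0 and 704 on the control arrays (0.66), above both.

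**Figure D4:**
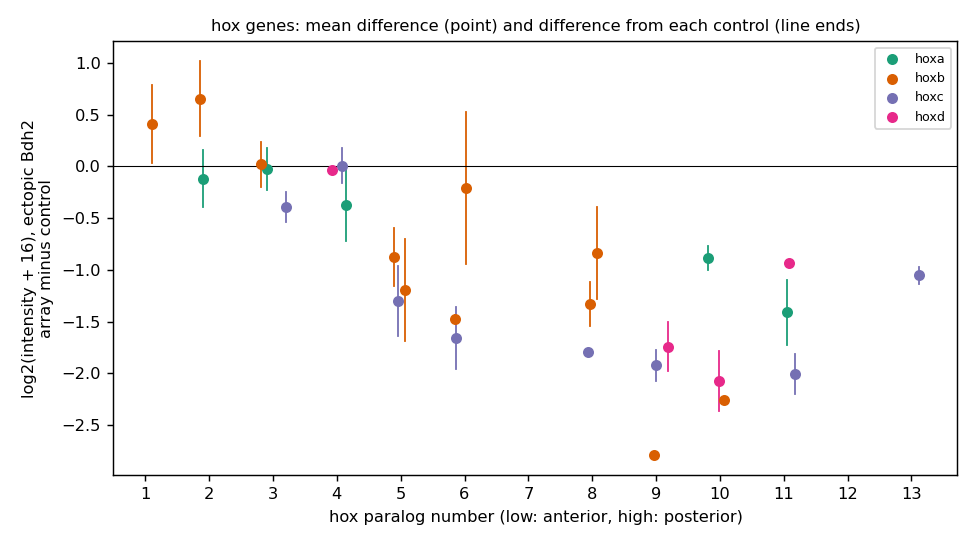
Log2 difference of the ectopic Bdh2 array from controls (vertical) for 28 hox genes by paralog number (horizontal; low numbers anterior, high posterior), coloured by cluster. Points are the difference from the control mean and line ends the differences from each control; paralogs 9 to 13 all lie below 0, and paralogs 1 to 4 scatter about it.

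On the high side no gene passed the limma test, and the results there are descriptions of 1 array. That none passed does not show that none was higher. Retinal transcription factors stood out by count: 24 of 25 described members lay above both controls and 8 over 2-fold above, beside 42.3% and 1.45% of all genes. The list median was 1.17 (0.87 from control replicate 1 and 1.66 from control replicate 2), against -0.50 in Bdh2 morphants. The controls themselves differed here, with control replicate 2 lower by a median of 0.87. The eye-field factor six6a read 298 on the ectopic Bdh2 array, 125 and 66.5 on the Bdh2 morphant arrays and 92.6 and 51.6 on the control arrays. As given above, six6a passed the filter only through its reading on the ectopic Bdh2 array, so its count among the 8 rests on that reading. For pax6a, a master factor of eye formation, the values were 2604 on the ectopic Bdh2 array, 1053 and 779 on the Bdh2 morphant arrays and 974 and 946 on the control arrays, with both controls close together. The gene atoh7, which retinal ganglion cells need, read 694 on the ectopic Bdh2 array, 104 and 61.1 on the Bdh2 morphant arrays and 296 and 92.5 on the control arrays. The ectopic Bdh2 array was the highest for each of the 3, and the adjusted p were 0.417, 0.387 and 0.582. The interneuron factor ptf1a read 639 on the ectopic Bdh2 array, against 239 and 187 on the control arrays. The bHLH gene neurod4 read 1908 on the ectopic Bdh2 array, against 883 and 475 on the control arrays. The genes crx and vsx1, factors of photoreceptors and bipolar cells, are given because the Bdh2 morphants read low for them, and were chosen after their values were seen. The crx transcript read 1089 on the ectopic Bdh2 array, 42.6 and 14.1 on the Bdh2 morphant arrays and 1081 and 487 on the control arrays. The ectopic Bdh2 array stood at the level of the higher control. The vsx1 transcript read 1778 on the ectopic Bdh2 array, 109.6 and 65.7 on the Bdh2 morphant arrays and 1197 and 644 on the control arrays, above both controls by less than 2-fold. The described phototransduction and visual cycle genes did not share this: of 14, 5 lay above both controls and 6 below, beside 42.3% and 31.1% of all genes, with a median of -0.16. Of 44 genes of this list on the array, only these 14 passed the filter, and the cone marker gnat2 did not pass it. Finished photoreceptors are therefore little covered here. Of 6 described lens genes, 2 lay above both, with a median of -0.05 from control replicate 1 and 2.02 from control replicate 2, so the controls decide that value.

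Factors that mark brain regions were also on the high side. Of 38 described members, 35 lay above both controls, 1 below, and 6 over 2-fold above, beside 42.3%, 31.1% and 1.45% of all genes. The list median was 0.90, against -0.22 in Bdh2 morphants. The hindbrain gene egr2a read 248 on the ectopic Bdh2 array, 129 and 162 on the Bdh2 morphant arrays and 54.6 and 89.97 on the control arrays. The midbrain-hindbrain boundary gene en2b read 679 on the ectopic Bdh2 array, against 282 and 201 on the control arrays. Its relative en2a read 359 on the ectopic Bdh2 array, against 155 and 121 on the control arrays. The ectopic Bdh2 array was highest for all 3. The anterior brain factor otx1 read 561 on the ectopic Bdh2 array, against 236 and 196 on the control arrays, and irx1a, an Iroquois factor of the neural plate, read 1413 on the ectopic Bdh2 array, against 601 and 482 on the control arrays. Their log2 differences were 1.32 and 1.37 (limma adjusted p = 0.573 and 0.501). On the same array, hox genes of paralogs 5 to 13 lay mostly below the controls. Those of paralogs 9 to 13 were also below both controls on Bdh2 morphant replicate 1, as given above.

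Progenitor and proneural genes included the largest distance on the high side. The Notch ligand gene dlc, deltaC, read 1127 on the ectopic Bdh2 array, 208 and 201 on the Bdh2 morphant arrays and 213 and 181 on the control arrays. The 4 other arrays lay close together, and the difference was 2.43 (SE 0.40; limma adjusted p = 0.0724). The factor sox11b and the Notch target her15.2 were named after their values were seen. One sox11b probe set read 3573 on the ectopic Bdh2 array, 964 and 913 on the Bdh2 morphant arrays and 855 and 630 on the control arrays, and the other 2 sox11b probe sets lay above both controls by less than 2-fold. For her15.2 the values were 3583 on the ectopic Bdh2 array, 1139 and 2743 on the Bdh2 morphant arrays and 961 and 1661 on the control arrays. Of 49 described progenitor and glial genes, 35 lay above both controls, 8 over 2-fold above, and 10 below both, beside 42.3%, 1.45% and 31.1% of all genes. Their median was 0.74, against 0.01 in Bdh2 morphants. The neural progenitor factor sox19a read 3213 on the ectopic Bdh2 array, 2313 and 1134 on the Bdh2 morphant arrays and 1081 and 888 on the control arrays. On the low side of this list, slc1a3a, a glutamate transporter of glia, read 611 on the ectopic Bdh2 array, 2268 and 1962 on the Bdh2 morphant arrays and 1540.4 and 1956 on the control arrays (-1.48; limma adjusted p = 0.319). The glial filament gene gfap read 611 on the ectopic Bdh2 array, against 638 and 680.2 on the control arrays, slightly below both. Of 20 proneural and lineage bHLH genes, 17 lay above both controls and 5 over 2-fold above, where all genes had 42.3% and 1.45%, with a median of 0.85. The lists share members, so their counts are not separate: atoh7 is also in the retinal list and olig2 in the progenitor list. The motor neuron and oligodendrocyte factor olig2 read 1631 on the ectopic Bdh2 array, against 656 and 363 on the control arrays, and the dorsal factor olig3 read 1477 on the ectopic Bdh2 array, 1104 and 754 on the Bdh2 morphant arrays and 446 and 363 on the control arrays. The proneural gene ascl1a read 4096 on the ectopic Bdh2 array, 1457 and 1069 on the Bdh2 morphant arrays and 1439 and 1052 on the control arrays. The Id gene id2b, an inhibitor of bHLH factors, lay over 2-fold below, at 138 on the ectopic Bdh2 array, against 334 and 535 on the control arrays.

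Transcripts of differentiated neurons were closer to the controls. Of 52 described neuronal and synaptic genes, 35 lay above both controls and 12 below, with 3 over 2-fold on each side. The shares of all genes were 42.3% and 31.1%, and over 2-fold 1.45% above and 4.38% below. The median was 0.42, against -0.78 in Bdh2 morphants. Blocking on replicate number, the median was 0.06. The pan-neuronal gene elavl3 read 5536 on the ectopic Bdh2 array, 4790.5 and 1875 on the Bdh2 morphant arrays and 3984 and 2816 on the control arrays at its brightest probe set, and the synaptic gene snap25a read 1859 on the ectopic Bdh2 array, 1366 and 886 on the Bdh2 morphant arrays and 1669.9 and 1759 on the control arrays. The inhibitory vesicle transporter slc32a1 read 888 on the ectopic Bdh2 array, against 419.6 and 376 on the control arrays. The cholinergic vesicle transporter slc18a3a lay on the other side, at 118 on the ectopic Bdh2 array, against 284 and 339 on the control arrays. Cell cycle genes had a median of 0.34 with 64 of 103 above both and 8 below, and splicing factors a median of 0.22 with 63 of 107 above both and 8 below, beside 42.3% and 31.1% of all genes. Relative to the shift of all genes, both medians are small; after centring they were 0.24 and 0.12. The thymidine kinase gene tk1 read 773 on the ectopic Bdh2 array, against 257 and 282 on the control arrays, the only cell cycle gene over 2-fold above both. The mitotic kinesin gene kif20a was the only one over 2-fold below, at 349 on the ectopic Bdh2 array, against 1134 and 4239.8 on the control arrays (-2.60; limma adjusted p = 0.71). Its controls differed from each other by more than the lower control did from the ectopic Bdh2 array.

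**Figure D5:**
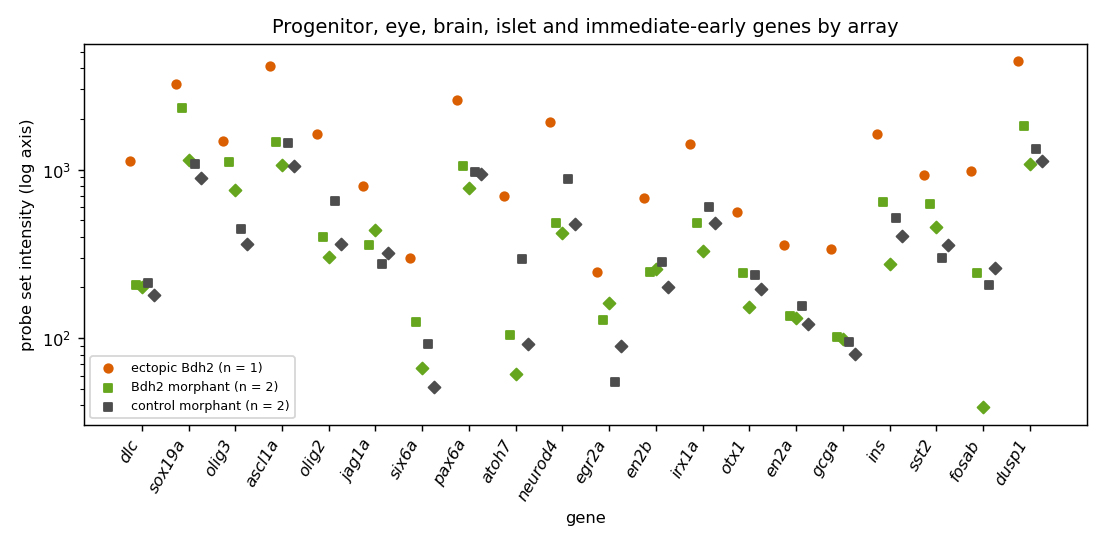
Probe set intensity (log axis) of progenitor, eye, brain, islet and immediate-early genes on the ectopic Bdh2 array (orange circle), the Bdh2 morphant arrays (green) and the control arrays (grey); squares are replicate 1 and diamonds replicate 2. The orange circle lies above all 4 other arrays for each gene drawn, with dlc at 1127 against 181 to 213. The genes were picked from list members far above both controls, so their place against the controls was set by the choice.

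Hormone genes of the islet and immediate-early genes also lay above. Of 17 described genes in the list of islet and gut hormones and granins, 13 lay above both controls, none below, and 4 over 2-fold above. Over all genes the shares were 42.3%, 31.1% and 1.45%. The list also holds transcription factors such as nkx2.2a and insm1b. Those over 2-fold above were the hormone genes ins, gcga and sst2 and the factor nkx2.2a. The list median was 0.63 (0.23 from control replicate 1 and 0.73 from control replicate 2). Blocking on replicate number, it was 0.12. Insulin, ins, read 1619 on the ectopic Bdh2 array, 639 and 275 on the Bdh2 morphant arrays and 518 and 403 on the control arrays. Glucagon, gcga, read 337 on the ectopic Bdh2 array, 102 and 98.5 on the Bdh2 morphant arrays and 95.5 and 80.3 on the control arrays, with 4 arrays close together and the ectopic Bdh2 array apart. It passed the filter only through its reading on the ectopic Bdh2 array, so its place here rests on that reading. Somatostatin, sst2, read 929.6 on the ectopic Bdh2 array, 623 and 455 on the Bdh2 morphant arrays and 299.6 and 355 on the control arrays. Their adjusted p were 0.494, 0.262 and 0.423. The list for exocrine pancreas, part of the same organ, had few described members. Of 6, 2 lay above and 2 below both controls, beside 42.3% and 31.1% of all genes. The 2 above were ptf1a, a transcription factor also in the retinal list, and sycn.2. The 2 below were the enzyme genes ela2l and prss1. The enzyme prss1 read 90.2 on the ectopic Bdh2 array, against 92.4 and 123 on the control arrays. Immediate-early genes, which respond within minutes to many stimuli, had 22 of 31 described members above both controls, 2 below and 7 over 2-fold above, with a median of 0.74. All genes had 42.3%, 31.1% and 1.45% in these places. The AP-1 gene fosab read 985 on the ectopic Bdh2 array, 242 and 38.9 on the Bdh2 morphant arrays and 206 and 261 on the control arrays. The phosphatase gene dusp1 read 4395 on the ectopic Bdh2 array, 1824 and 1082 on the Bdh2 morphant arrays and 1333 and 1119.8 on the control arrays, and the cytokine inhibitor gene socs3a read 509 on the ectopic Bdh2 array, 293 and 106 on the Bdh2 morphant arrays and 134 and 138 on the control arrays. For these genes the Bdh2 morphant replicates differed among themselves, and none passed (limma adjusted p = 0.709, 0.264 and 0.543).

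The remaining genes among the 15 with the largest distance above were of mixed kind. The spinal cord progenitor factor dbx1a read 3187 on the ectopic Bdh2 array, 1241 and 696 on the Bdh2 morphant arrays and 904 and 633 on the control arrays, and nr2e1, a nuclear receptor of neural stem cells, read 984 on the ectopic Bdh2 array, 469 and 235 on the Bdh2 morphant arrays and 283 and 199 on the control arrays. The kinase gene sik1 read 1309.8 on the ectopic Bdh2 array, against 369 and 321 on the control arrays. The splicing kinase gene clk4a read 2122 on the ectopic Bdh2 array, against 705 and 693 on the control arrays. For all 4 of these genes the ectopic Bdh2 array was the highest. The vesicle trafficking gene trappc2 read 314 on the ectopic Bdh2 array, against 86.2 and 77.2 on the control arrays. It passed the filter only through its reading on the ectopic Bdh2 array. The genes fam222aa and wu:fc34e06 lay 3.21-fold and 3.26-fold over the nearest control. None of these 7 passed (limma adjusted p between 0.234 and 0.401).

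Mitochondrial and ribosomal genes showed small differences in nearly all members. Of 79 described oxidative phosphorylation genes, 75 lay below both controls, beside 31.1% of all genes, but only 6 lay over 2-fold below, beside 4.38%, and the median was -0.61 against 0.02 in Bdh2 morphants. The list includes slc25a4, which had its largest distance (-3.73) and is among the genes said above to have fallen by the limma test. The complex III subunit gene uqcrq read 2525 on the ectopic Bdh2 array, against 5461 and 5473 on the control arrays (-1.11; limma adjusted p = 0.417). Of 73 ribosomal protein genes, 71 lay below both controls, none of them over 2-fold, with a median of -0.42 on the deposited scale and -0.0039 after quantile normalisation, so this difference depends on the scaling. Of 44 antioxidant and glutathione genes, 33 lay below both and 6 over 2-fold below, beside 31.1% and 4.38% of all genes, with a median of -0.57. In this list gpx4a, a lipid peroxide reductase, read 788 on the ectopic Bdh2 array, 2528 and 13392 on the Bdh2 morphant arrays and 4882 and 5908 on the control arrays. Of 20 pigment and purine synthesis genes, 18 lay below both and 2 over 2-fold below, beside the same shares, with a median of -0.59. The melanin synthesis gene dct, a defining marker of pigment cells, read 1992 on the ectopic Bdh2 array, against 3049 and 2065 on the control arrays. Matrix proteases and fibrosis genes had 27 of 33 members below both, 7 of them over 2-fold, beside the same shares again, and a median of -0.57.

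Blood, iron and heme genes, the field in which Bdh2 is best known, gave no uniform difference. Of 17 described iron transport and storage genes, 3 lay above both controls, 7 below and 3 over 2-fold below (42.3%, 31.1% and 4.38% of all genes), the last being tfa, ptgdsb.1 and bdh2 itself. The list median was -0.31, at -0.54 from control replicate 1 and 0.03 from control replicate 2. The iron-sensing ubiquitin ligase gene fbxl5 read 972 on the ectopic Bdh2 array, against 613 and 666 on the control arrays, above both. Heme synthesis and mitochondrial iron genes had 2 of 18 above both and 8 below, none over 2-fold, beside 42.3% and 31.1% of all genes, with a median of -0.33. The enzyme urod, of heme synthesis, read 756 on the ectopic Bdh2 array, against 1449.9 and 2086 on the control arrays. Erythroid genes had a median of -0.94 from control replicate 1 and 0.45 from control replicate 2, so the controls lay on opposite sides of the ectopic Bdh2 array. Blocking on replicate number, the medians were lower, at -0.87 for erythroid, -0.56 for heme and -0.53 for iron genes. The erythroid heme enzyme alas2 read 1800.1 on the ectopic Bdh2 array, 2849 and 439 on the Bdh2 morphant arrays and 4982 and 690.2 on the control arrays, and the erythroid factor gata1a read 217 on the ectopic Bdh2 array, 503 and 112 on the Bdh2 morphant arrays and 704 and 147 on the control arrays. In both groups with 2 arrays, replicate 1 was the higher for alas2 and gata1a. The erythroid list member that fell, tmod4, is a tropomodulin of muscle (-2.65; limma adjusted p = 0.0326). Of 5 described globin list members, 4 lay below both controls and none over 2-fold, beside 31.1% and 4.38% of all genes, with a median of -0.56. The embryonic globin hbae3 read 25464 on the ectopic Bdh2 array, against 39125 and 26341 on the control arrays. The beta globin hbbe2 read 4149 on the ectopic Bdh2 array, 9282 and 2929 on the Bdh2 morphant arrays and 18927 and 5181 on the control arrays, a log2 difference of -1.25 (SE 0.87; limma adjusted p = 0.785). For hbbe2 the controls differed from each other by more than the lower control did from the ectopic Bdh2 array. The neutrophil gene mpx lay between the controls, at 296 on the ectopic Bdh2 array, against 609 and 119.6 on the control arrays. So did lysozyme, lyz, at 3959 on the ectopic Bdh2 array, against 5599 and 2103 on the control arrays.

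Other tissues were nearer the controls or mixed. Epidermal genes had 12 of 54 members above both controls and 25 below, 4 of them over 2-fold. Their median was -0.21, or -0.07 after quantile normalisation. Over all genes the shares were 42.3%, 31.1% and 4.38%. The keratin gene krt4 read 20301 on the ectopic Bdh2 array, against 32398 and 21596 on the control arrays, and tp63, a factor of basal keratinocytes, read 255 on the ectopic Bdh2 array, against 610.1 and 546 on the control arrays. Vessel genes had 9 of 22 above and 9 below, beside 42.3% and 31.1% of all genes, with a median of 0.12, and the endothelial receptor kdrl read 364 on the ectopic Bdh2 array, against 241 and 301 on the control arrays. Of 44 heat shock and chaperone genes, 19 lay above and 8 below both controls, with 4 over 2-fold below. All genes had 42.3%, 31.1% and 4.38%. The largest distance was that of hsc70, a chaperone, at 51.2 on the ectopic Bdh2 array, 153 and 87.1 on the Bdh2 morphant arrays and 362 and 316 on the control arrays (-2.40; limma adjusted p = 0.143). The gene hsp90aa1.1, a chaperone that developing muscle uses, read 328 on the ectopic Bdh2 array, 1676 and 2313 on the Bdh2 morphant arrays and 1580.4 and 3007 on the control arrays (-2.68; limma adjusted p = 0.109). Genes of the p53 response had 13 of 26 above and 6 below, beside 42.3% and 31.1% of all genes. Their median of 0.20 was 0.11 above that of all genes, so the list lay near the background. Of its members, btg2 read 1895 on the ectopic Bdh2 array, against 916 and 659 on the control arrays and gadd45ba read 1328 on the ectopic Bdh2 array, against 438 and 797 on the control arrays, and neither passed the test. Genes of hypoxia and glycolysis had 6 of 39 above and 21 below, with 4 over 2-fold below, beside 42.3%, 31.1% and 4.38% of all genes, and a median of -0.22. The defining markers fabp10a of liver, ela2 of exocrine pancreas, gnat2 of cones and matn1 of cartilage were under the filter on mean level.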

How the data were processed

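Total RNA of zebrafish embryos was biotin-labelled and hybridised to Affymetrix arrays, 1 sample per array. The deposited table holds 1 linear intensity per probe set and array, made with Affymetrix Expression Console per the submitters' processing notes. The summarisation method, the scaling and the program's version are not given in the sources used. The distribution of values differed from array to array, so the deposited probe set values had not themselves been quantile normalised. Whether an earlier step was normalised in that way is not known.

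Values were used as log2(intensity + 16) without another normalisation, so fold changes are on that scale and understate changes of dim genes. Of 15617 probe sets, 115 Affymetrix controls were set aside, and 9301 passed the filter on mean level (above the 40th percentile over all 5 arrays). Symbols came from the array's annotation: 10802 probe sets carried 1 symbol, 135 several and 4680 none. A gene was represented by its probe set with the highest mean. Among genes over 2-fold below both controls, 26 had several described probe sets, and 25 had all of them on the same side. Among genes over 2-fold above, this held for 8 of 10, and none had one on the opposite side.

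Groups and replicate numbers come from the sample titles. The distance of the ectopic Bdh2 array is that to the nearest control, if both controls lie on the same side. The limma fit (limma 3.58.1, R 4.3.3) used group means over all 5 arrays with an intensity trend, 2 residual and 4.89 prior degrees of freedom, two-sided p and Benjamini-Hochberg adjustment at 0.05. The p-values measure only the spread between replicates of the control and Bdh2 morphant groups, which may be technical. The ectopic Bdh2 group, a single array, adds nothing to that spread. The fit was first tested on simulated data. Replicate differences (2 minus 1) of controls and Bdh2 morphants correlated at r = 0.538 across probe sets, but the labels do not say what a number shares, and only 2 numbers exist.

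The members and the 51 gene lists were chosen with earlier results of these data known. Named genes are bdh2, the 15 largest distances on each side, up to 5 members per list by distance, markers of embryo tissues, and any gene past the limma threshold. Others are said to have been chosen after their values were seen. Alternatives varied the added constant, the filter, the scaling, the trend, the fold, the replicate block and the arrays used. Sequences were not used here.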

Additional observations from a re-analysis of the deposited data

How the results depend on the processing

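With 1 array against 2 the direction of a gene rests on a single sample, and counts move with the settings. Limma counts with a control left out rest on larger prior degrees of freedom, as given above. They are not like for like with the main count. Without the filter, 323 probe sets lay over 2-fold above both controls, 6734 lay above and 4264 below both by any amount, and limma called 38 lower, with 24 of the 62 lost. The count over 2-fold below both controls was 484 without the filter. With a 4-fold line, 4 lay above and 129 below. With 1 control left out, 401 to 799 lay over 2-fold above and 538 to 697 below, because a single control then sets the line, and limma called 83 to 122 lower and 1 to 10 higher across all arrays left out in turn. Without the intensity trend limma called 40 lower, with 22 of the 62 lost, and with the single array and controls alone 82 lower and 1 higher. With the replicate block it called 126 lower and 9 higher. With the ectopic Bdh2 array placed in number 2 of the block, an alternative added after seeing the data, it called 266 lower and 127 higher. All 62 probe sets stayed called in both block fits. Of list genes, 41 passed only with the block, 39 lower and 2 higher. Those higher were dlc (adjusted p = 0.026) and her15.2 (adjusted p = 0.0322), and 1 probe set of sox11b also passed (adjusted p = 0.0256). Those lower included col2a1a (0.00262), cnmd (0.00333), tbxta (0.0402), rbp4 (0.00965), fetub (0.0193), cav3 (0.0193), itih2 (0.0227), fabp2 (0.0411), fabp1b.1 (0.0216), hsp90aa1.1 (0.0183), hsc70 (0.0275) and hbbe2 (0.0121), as limma adjusted p. The bdh2 difference was -0.83 with the block and -1.51 with the array in number 2, and passed in neither.

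List medians of muscle kept their values. The liver median was -1.69 with a constant of 64, -1.03 without the filter and -1.63 with the block, which also moved the globin median to -1.11, reported at -0.56. The apolipoprotein median was -1.90 without the filter, ran between -2.39 and -2.24 with 1 control left out, and was -2.60 with the array in number 2. The cartilage median was -0.89 without the filter. The ribosomal protein median was -0.0039 after quantile normalisation. Of 51 list medians, 11 changed sign when 1 control was left out: lens (-0.051), vessels (-0.057), heart (-0.089) and endoplasmic reticulum stress (-0.125) without control replicate 2, and erythroid (0.45), iron (0.027), myeloid (0.095), interferon (-0.58), ribosome biogenesis (-0.31) and proteasome (-0.13) without control replicate 1, with translation factors either way (-0.072 to -0.0089). Other medians that changed sign included vitellogenins, reported at -0.70, without the filter (0.12), exocrine pancreas after centring (-0.029) and quantile normalisation (-0.026), intestine without the filter (0.031), heat shock with the block (-0.059), and translation factors after centring (-0.094) and with the block (-0.0603). The causes were not tested. Signal over background limits the 70 low genes under the filter intensity.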
